A study of Mus musculus with 12 samples.

Results

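The genes described here are 10 that cells raise, or use, when oxygen is short: Hif1a, Epas1, Vegfa, Car9, Bnip3, Egln1, Egln3, Ankrd37, Adm and Ndrg1. They were chosen by gene symbol, as a set of known hypoxia genes, and all 10 were found among the 30743 rows of the deposited table. The RNA came from whole livers of male C57BL/6J mouse fetuses at 15 ± 0.5 dpc (days post coitum), 6 labelled Control and 6 labelled High-fat. Control dams had eaten a diet with 13.5 kcal% fat and High-fat dams one with 60 kcal% fat, for 12 to 14 weeks, and the labels do not say which fetuses shared a dam. The value used is 1 number per gene, the authors' average log2 CPM (CPM, a gene's read count scaled to the total of its library) over the 12 livers of both diets. It carries no spread between livers and does not separate the diets, so the values below are levels in this tissue, without error or test, and a comparison of the diets was not analysed here.

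When oxygen is plentiful, the prolyl hydroxylases made from Egln1, Egln2 and Egln3 mark the HIF alpha subunits, and the product of Vhl then directs them to degradation. When oxygen falls the alpha subunits last longer, pair with the product of Arnt and bind a short DNA element, the hypoxia response element, near genes of glucose use, blood vessel growth, pH control and mitochondrial turnover. HIF alpha activity is set largely through this breakdown of the protein, which RNA levels do not show. The fetal liver at this age is the main site of blood formation, and it holds erythroid cells in large numbers beside hepatocytes.

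Markers of both cell types were at the top of the table. Alb, the main plasma protein of hepatocytes, had an average of 63314 CPM, and Hba-a2, an alpha globin gene, 49708 CPM. Of the erythroid markers, 7 of 10 were found under their symbols, and all 7 lay above 1 CPM, while none of 4 kidney markers did. All 7 of the former have at least 50%, and all 4 of the latter under 50%, of their exon bases in a single coding transcript, a feature described with Hif1a that went with the level in this table. Of the hepatocyte markers 6 of 8 were above 1 CPM. The exceptions were Serpina1a, a protease inhibitor, and Hnf4a, a transcription factor of hepatocytes listed at the level of genes without reads. Endothelial Pecam1 and Tek were listed there too, while endothelial Cdh5, Kdr, Stab2 and Lyve1 were above 1 CPM. The same threshold was passed by 5 of 6 markers of stellate and mesenchymal cells and 3 of 6 of macrophages. Markers of megakaryocytes and granulocytes passed it in 4 of 4 each, with 3 of 4 of the B lineage and 4 of 6 of the acinar pancreas. Of the 20267 symbols matched to an annotated coding gene 45.0% passed it. The counts alone do not tell which cells were present.

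The element is read from its core letters, ACGTG or GCGTG, which may lie on either strand. RefSeq promoter sequences of GRCm38.p6, each from 250 bases before the gene start to 50 after it, were matched by symbol to 8 of the 10 genes (Epas1 and Ndrg1 had none), with 9 promoters because Vegfa has 2 starts. In each promoter with a match, the one nearest to the start is printed here with 10 bases on each side. Sequences run 5′ to 3′ on the gene's strand, and capitals mark the core, which reads CACGT or CACGC where it lies on the opposite strand.
Hif1a, chr12:73907787-73907811: gctgagagcaACGTGggctggggtg
Vegfa, chr17:46025360-46025384: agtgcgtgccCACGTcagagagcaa
Car9, chr4:43506998-43507022: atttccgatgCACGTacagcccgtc
Bnip3, chr7:138909527-138909551: ctccgccgccGCGTGcgtcccgccc
Egln1, chr8:124949308-124949332: gccgtggtgtACGTGcagcgcgcgc
Egln3, chr12:54204089-54204113: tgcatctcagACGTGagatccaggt
Ankrd37, chr8:45999842-45999866: gtgtttgggtACGTGaggccgcagc
Adm, chr7:110627593-110627617: caaatctgacCACGCccaccgtccg

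A core was present in 8 of the 9 promoters and in a promoter of each of the 8 matched genes. Of all 32851 RefSeq promoters of the same length, 43.8% held a core on either strand. The core ACGTG was in 7 of the 9 promoters and in 19.6% of all promoters, and GCGTG was in 5 of the 9 (55.6%) and in 32.4% of all. Base composition differed as well: the median GC content was 62.0% in the 9 promoters and 52.7% in all, and 69.2% of the 9690 promoters with at least 60% GC held a core. Among those GC-rich promoters 26.5% held ACGTG and 59.2% held GCGTG, so that GCGTG was no more frequent in the 9 than there. These genes were picked as known hypoxia genes, some of them on account of such elements, so the count is a description. A match is a stretch of letters and not a measured binding site.

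**Figure D1:**
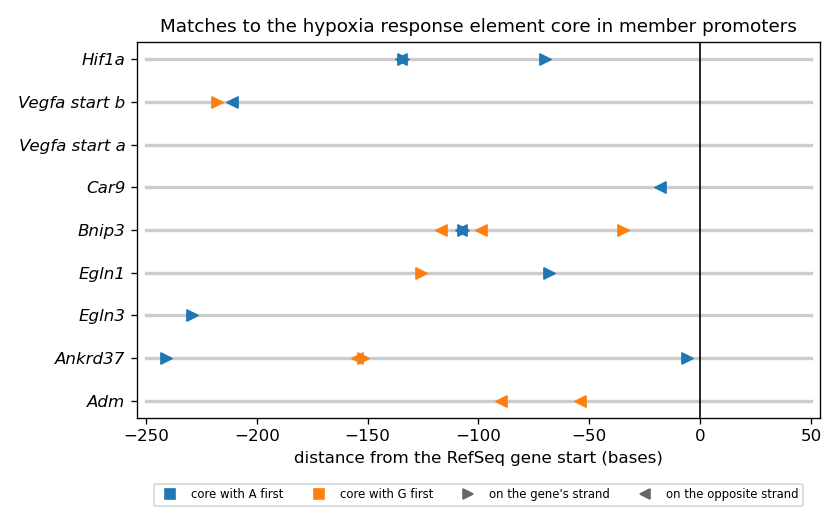
Positions of the core letters of the hypoxia response element (blue, core beginning with A; orange, core beginning with G; arrowheads point right on the gene's strand and left on the opposite strand) in 9 promoters of 8 genes, by distance in bases from the RefSeq start. Bnip3 has 5 matches and Ankrd37 has 4, all matches lie before the start, and the Vegfa promoter labelled start a has none.

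Bnip3 had the most matches, 5, of which 2 were the 2 strands of 1 palindrome at 108 bases before the start, and a GCGTG lay 35 bases before the start. Ankrd37 had 4, the nearest of them 6 bases before the start. Hif1a had 3, again with a palindrome counted on both strands, at 135 bases before the start. Car9 had 1 match, 18 bases before the start, and Egln3 had 1, at 229 bases. The Adm promoter held GCGTG only, at 54 and 90 bases before the start and on the opposite strand both times. In Vegfa the 2 matches stood before the start that lies inside the gene (7206 bases from its annotated outer end), and the promoter of the outer start held none. The Hif1a start used by RefSeq also lies inside the annotated gene, 6492 bases from its outer end, as does that of Ankrd37, 5857 bases from its outer end.

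The average levels spread over a wide range. Of the 10 genes, 4 (Ndrg1, Egln1, Epas1 and Bnip3) lay above 50 CPM, 3 (Egln3, Adm and Ankrd37) between 1 and 50 CPM, and 3 (Car9, Vegfa and Hif1a) below 1 CPM. Above 1 CPM were thus 7 of 10, against 33.1% of all 30743 rows and 45.0% of the 20267 symbols matched to an annotated coding gene. The lowest value of the table, -2.71 log2 CPM or 0.152 CPM, was shared by 11091 rows and is the value of genes without reads, since a small count is added before the logarithm is taken. None of the 10 was at that value.

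**Figure D2:**
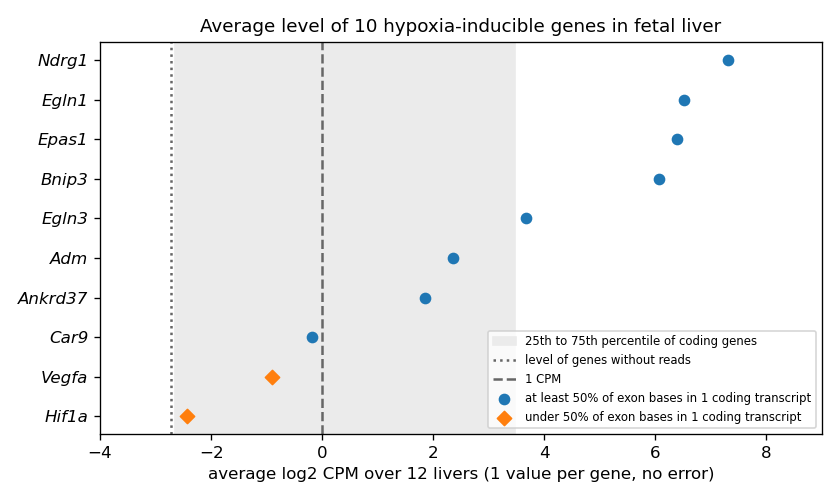
Average log2 CPM over the 12 livers for each of the 10 genes (1 point per gene, no error available), with the level of genes without reads (dotted line), 1 CPM (dashed line) and the 25th to 75th percentile of annotated coding genes (grey band). Ndrg1, Egln1, Epas1, Bnip3 and Egln3 lie above the band, and Hif1a and Vegfa, the 2 genes with under 50% of their exon bases in a single coding transcript (diamonds), are the lowest.

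The alpha subunits of the transcription factor are encoded by Epas1 and Hif1a. Epas1, which encodes HIF-2 alpha, is located on chromosome 17 of GRCm38 (mm10) from 86753700 to 86833410 and has 16 exons in its longest coding transcript. Its average level was 6.40 log2 CPM, or 84.2 CPM, above 90.2% of the 19652 rows with reads. Hif1a, which encodes HIF-1 alpha, lies on chromosome 12 from 73901375 to 73947530. It was listed at -2.44 log2 CPM, or 0.184 CPM, only 0.28 on the log2 scale above genes without reads, and above 15.9% of rows with reads.

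The value of Hif1a stands beside a feature of the table. Of the exon bases of its 3 annotated coding transcripts, 14.1% belong to a single transcript and the rest are shared between transcripts. For Epas1, with 1 coding transcript, the share is 100%. Among the 20267 coding genes the median level rose with this share below 100%. It was -2.26 log2 CPM where at most 5% of exon bases were in a single transcript. It was 2.56 where the share was over 80% but under 100%. The 6598 genes at 100% did not follow, with a median of -0.24, below the -0.17 of the class over 40% to 60%. How reads that lie in more than 1 transcript were counted is not given in the sources used here, and the part of this sharing in the levels was not tested. A low share did not always go with a low level: Apob, which encodes the main protein of secreted lipoproteins, had 2899 CPM with a share of 0.431%, and Mpo, the peroxidase of granulocytes, 759 CPM with 19.3%. The level of Hif1a, like those of all genes here, is given as listed and not as the abundance of its RNA. How closely the listed levels follow RNA abundance was not tested.

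**Figure D3:**
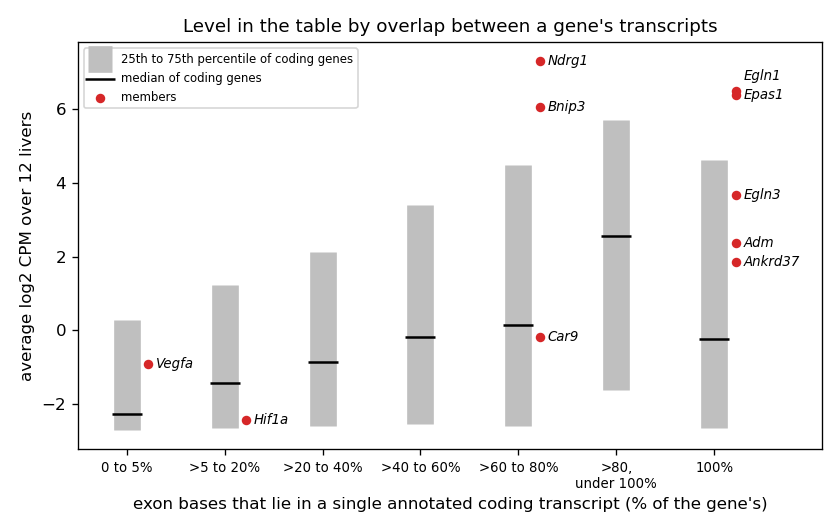
Average log2 CPM of annotated coding genes by the share of their exon bases that lie in a single annotated coding transcript (grey bars, 25th to 75th percentile; black lines, median) with the 10 genes as red points beside the bar of their class. Vegfa at 0% and Hif1a at 14.1% fall in the classes with the lowest medians, and Car9 is the only one of the other 8 genes that lies below 1 CPM. Vegfa lies above the median of its class (-2.26 log2 CPM), and Hif1a lies below that of its own (-1.42 log2 CPM).

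Vegfa, the main growth factor for blood vessels, was the other gene with a low share. It is located on chromosome 17 from 46016993 to 46032369, it has 8 coding transcripts, and none of its exon bases (0%) belongs to 1 of them alone. It was listed at -0.90 log2 CPM, or 0.534 CPM, above 39.1% of rows with reads. Its receptors were higher in the table: Kdr, with 1 coding transcript, had 71.0 CPM and Flt1 had 17.7 CPM. Below 50% of exon bases in a single transcript, 0 of 2 of the 10 genes were above 1 CPM (36.8% of 8799 coding genes), and at 50% or more 7 of 8 were (51.3% of 11468).

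The hydroxylases, which sense oxygen, both lay far above the level of genes without reads. Egln1, which encodes the main hydroxylase of HIF alpha, lies on chromosome 8 from 124908587 to 124949324 and had 6.51 log2 CPM, or 90.9 CPM. Egln3, itself induced by hypoxia, lies on chromosome 12 from 54178981 to 54203860 and had 3.66 log2 CPM, or 12.7 CPM. Both have a single coding transcript of 5 exons. Levels of different genes are comparable only per transcript length, and per kilobase of the longest coding transcript the level of Egln1 was 25.3 CPM and that of Egln3 4.76 CPM, a ratio of 5.31. Egln2, the third hydroxylase, stood close to Egln1 with 24.6 CPM per kilobase, with 24.8% of its exon bases in a single transcript.

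Among the target genes, Ndrg1 was the highest of the 10 on both scales. It encodes a cytoplasmic protein of stress and differentiation responses, lies on chromosome 15 from 66929318 to 66969640, and had 7.31 log2 CPM, or 159 CPM, above 95.1% of rows with reads. Per kilobase its level was 55.0 CPM. Bnip3, a receptor of the outer mitochondrial membrane that marks mitochondria for removal, lies on chromosome 7 from 138890836 to 138909519. Its level was 6.06 log2 CPM, or 66.9 CPM, and 38.1 CPM per kilobase, which put it ahead of Egln1 and Epas1 (15.3 CPM per kilobase) on that scale. Its relative Bnip3l, which clears mitochondria from maturing red cells, was listed at 0.430 CPM, and 1.92% of its exon bases belong to a single transcript.

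Adm and Ankrd37 were intermediate. Adm, which encodes the vasodilator peptide adrenomedullin, lies on chromosome 7 from 110627661 to 110629820 and had 2.36 log2 CPM, or 5.15 CPM, above 65.9% of rows with reads. Ankrd37, a small gene of ankyrin repeats, lies on chromosome 8 from 45996902 to 46005707 and had 1.86 log2 CPM, or 3.63 CPM, above 62.5% of rows with reads. Per kilobase they were nearly equal, with 3.70 CPM for Adm and 3.92 CPM for Ankrd37, and their order turned when coding length was used in place of transcript length (9.32 and 7.61 CPM per coding kilobase). Without a spread between livers, it cannot be said whether neighbours in the order differ.

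Car9, which encodes a carbonic anhydrase of the cell surface that many tissues make only under low oxygen, lies on chromosome 4 from 43506966 to 43513729. It had -0.19 log2 CPM, or 0.877 CPM, above 46.5% of rows with reads. Of its exon bases 64.8% belong to a single transcript, so its low value stands apart from those of Hif1a and Vegfa in that respect. Per kilobase, the descending order of the 10 genes was Ndrg1, Bnip3, Egln1, Epas1, Egln3, Ankrd37, Adm, Car9 (0.433 CPM), Vegfa (0.155 CPM) and Hif1a (0.0390 CPM).

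The wider pathway was represented by 71 further genes in 5 groups by role. All 71 were in the table, and 52 of them (73.2%) were above 1 CPM, against 45.0% of all annotated coding genes. Their median was 2.29 log2 CPM, against 3.01 for the 10 genes and -0.67 for all annotated coding genes. Of the 37 with at least 50% of their exon bases in a single transcript 33 were above 1 CPM, against 51.3% of all such coding genes. Of the 33 with a lower share 18 were, against 36.8% of all such coding genes. The other gene, Aldoa, has 2 entries of that symbol in the annotation and was left without a length.

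**Figure D4:**
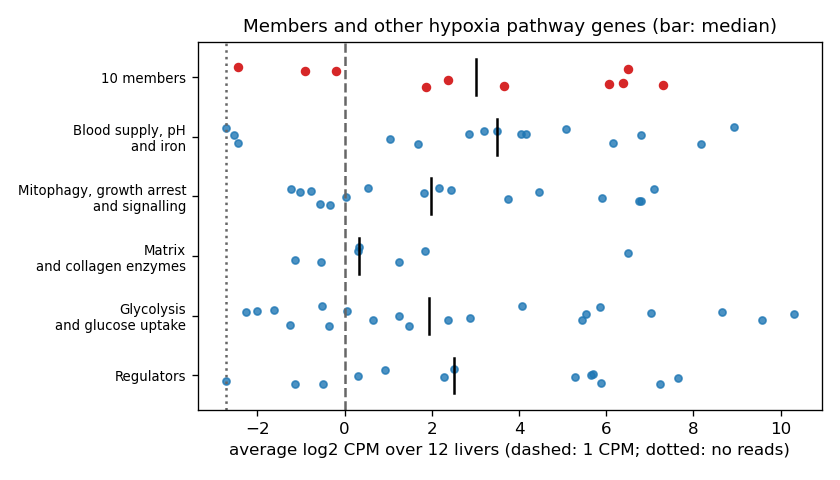
Average log2 CPM over the 12 livers of the 10 genes (red) and of 71 other hypoxia pathway genes in 5 role groups (blue, 1 point per gene, vertical scatter for legibility), with the median of each group (black bar), 1 CPM (dashed) and the level of genes without reads (dotted). The medians run from 0.34 for matrix and collagen enzymes to 3.49 for genes of blood supply, pH and iron.

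Among the regulators, 10 of 13 were above 1 CPM. The highest per kilobase were Rbx1 (35.0 CPM), a subunit of the ligase that contains the Vhl protein, Egln2, and Hif1an (24.4 CPM), the hydroxylase that blocks HIF from its coactivators. Arnt, the partner of the alpha subunits, was among the lowest with 0.164 CPM per kilobase, and 10.5% of its exon bases lie in a single transcript. Arnt2 was listed at the level of genes without reads. Vhl had 38.7 CPM and 1 coding transcript.

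Glycolysis and glucose uptake had 14 of 20 genes above 1 CPM, with a median of 1.93 log2 CPM, and it held the pair of genes with the highest levels per kilobase of the pathway. Tpi1, triose phosphate isomerase, had 472 CPM per kilobase, Slc2a1, the glucose transporter of erythroid cells and many others, 386 CPM, and Pfkl, the liver phosphofructokinase, 108 CPM. The lowest were Pfkfb4 (0.0601 CPM per kilobase, 4.93% of exon bases in a single transcript) and the lactate transporter Slc16a3 (0.0573 CPM per kilobase, 46.9%). Before division by length they had 0.210 and 0.248 CPM, the reverse order, and both were near the 0.152 CPM of genes without reads. All 9 genes of this group with a share of at least 50% were above 1 CPM, and 4 of the 10 with a lower share were. Ldha, which makes lactate and has 12 coding transcripts, was listed at 0.786 CPM.

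Matrix and collagen enzymes had the lowest median of the 5 groups, 0.34 log2 CPM, which was above that of all annotated coding genes, and 5 of 7 were above 1 CPM. Plod1, a lysyl hydroxylase, led with 28.0 CPM per kilobase. Loxl2, a lysyl oxidase of the matrix, had 0.672 CPM per kilobase, and Lox and Plod2 were lowest (0.262 and 0.125 CPM). In 6 of these 7 genes under 50% of the exon bases lie in a single transcript.

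Of the genes of mitophagy, growth arrest and signalling, 11 of 16 were above 1 CPM. Fam162a, a mitochondrial protein, had 155 CPM per kilobase with a share of 23.9%, Ero1l, an oxidase of the endoplasmic reticulum, 31.2 CPM, and Zfp395 25.5 CPM. Bhlhe41 and Rora, both transcription factors of the circadian system, were lowest per kilobase with 0.0952 and 0.0622 CPM. Of their exon bases 90.2% and 80.2% lie in a single transcript. Their longest coding transcripts have 6133 and 10878 bases. Before division by length they had 0.584 and 0.677 CPM, above the 0.430 CPM of Bnip3l, so their place as lowest depends on length.

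In the group of blood supply, pH and iron, 12 of 15 genes were above 1 CPM. Hmox1, which breaks down heme, had 313 CPM per kilobase, Trf, the iron carrier transferrin, 112 CPM with a share of 24.5%, and the chemokine gene Cxcl12 19.7 CPM. Car12, a carbonic anhydrase related to Car9, had 0.0495 CPM per kilobase with 1.61% of its exon bases in a single transcript. Before division by length Car12 had 0.184 CPM, near the 0.152 CPM of genes without reads. Cxcr4, with a share of 50.3%, was listed at the level of genes without reads. Epo, the hormone that drives red cell formation, was listed at 0.171 CPM, near the level of genes without reads. Of its exon bases 140 (16.4%) lie in a single transcript. Its receptor gene Epor, a marker of erythroid cells, had 224 CPM with a share of 78.3%.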

How the data were processed

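RNA of 12 fetal livers (6 per diet, groups from the diet label) was polyA-selected and sequenced. Per the labels and the study's methods, the authors trimmed reads with cutadapt 1.2.1, used Subread 1.3.6-p1 for alignment against the mm10 build, and ran edgeR. The gene counter and normalization are not given in the sources used here. The authors deposited 1 table with an average log2 CPM per gene symbol over all livers. Its other columns hold the authors' own diet comparison (log2 fold changes, p-values, adjusted p-values, signed fold changes) and a further average log2 CPM column, and were not used. Without counts of single livers, depth and precision are unknown, and the planned diet test was not run.

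CPM is 2 to the power of the average. The level of genes without reads was not subtracted before division by length. Per-kilobase values of genes near that level, such as Hif1a, Pfkfb4 and Car12, therefore depend largely on length. Lengths, positions and exon bases came from GENCODE M21 (GRCm38, the build of mm10), promoters from RefSeq. All 10 members are named, and of each pathway group the 3 highest and 2 lowest per kilobase, except 1 gene that is not reported here. Apob, Mpo, Bnip3l, Kdr, Flt1, Vhl, Ldha, Aldoa, Epo and Epor were named, and the share of exon bases, its limit of 50% and the 60% GC limit chosen, after values were seen. Members and lists were chosen with earlier results of these data known. Motif and share computations were tested on simulated data. Python 3.11.15, numpy 2.4.6, pandas 2.3.3 and matplotlib 3.10.9 were used.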

Additional observations from a re-analysis of the deposited data

How the results depend on the processing

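A value was taken as moved where it changed by over 1.5 times. Per kilobase of coding length, all 10 levels moved: Hif1a 0.0735, Epas1 32.1, Vegfa 0.454, Car9 0.669, Bnip3 119, Egln1 75.8, Egln3 17.7, Ankrd37 7.61, Adm 9.32 and Ndrg1 135 CPM per kilobase, with only Adm and Ankrd37 changing places. Coding length is shorter than the transcript, so every such level had to rise. Ranked among all rows, Hif1a stood above 46.3% and Vegfa above 61.1%. Among rows above 1 CPM, Ankrd37 stood above 27.5% and Adm above 34.0%, and Hif1a, Vegfa and Car9 had no rank there. With the level of genes without reads subtracted, a choice made after seeing the data, Hif1a came to 0.0320 CPM. The other 25 of 40 values under alternatives stayed within 1.5 times, among them the count of pathway genes above thresholds of 0.5 and 2 CPM and the count of promoters with a core before the start. Not run were the other average column, protein identity, and the DESeq2 and filter alternatives of the diet test. No paired analysis was possible because no values of single livers were used. Without counts, how precisely the levels below 1 CPM are known cannot be given.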

Other observations

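Listed levels of further genes are given here beside their share of exon bases in a single transcript. Alas2, the first enzyme of heme synthesis in erythroid cells, was listed at 0.704 CPM, while Slc4a1, the anion exchanger of red cells, had 12037 CPM. Of the exon bases of Alas2 7.12% belong to a single coding transcript, and of those of Slc4a1 100%. Of 13 genes often used as references because most cells express them, 10 were above 1 CPM, and Tbp, Gusb and Ppia were not, with 0.638, 0.312 and 0.165 CPM. The share of exon bases in a single transcript was 85.3% for Tbp, 65.4% for Gusb and 69.0% for Ppia. The share counts annotated bases, and the longest coding transcript of Tbp has 12794 bases, with a coding length of 948 bases. All 5 of the 13 with under 50% of their exon bases in a single transcript were above 1 CPM, and 5 of the 8 with a higher share were. These genes were chosen after the values of the table had been seen, and no cause was tested.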
